A study of Mus musculus with 3 samples.

Results

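The Ly49 receptors, named Klra in the gene tables, are a family of closely related membrane proteins coded side by side on mouse chromosome 6. Here 7 of them (Klra1, Klra4, Klra5, Klra6, Klra7, Klra8 and Klra9) were followed through the leukocytes of the sciatic nerve, out of 17168 genes in the count table. They were chosen by their counts: earlier results of these data placed their transcripts in 2 clusters of cytotoxic lymphocytes and in some CD8 T cells. Their levels across clusters are therefore a description, without a test. The table also holds 4 other Klra genes (Klra2, Klra3, Klra10 and Klra17).

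Ly49 receptors are lectin-like proteins that read MHC class I molecules on other cells and are best known from natural killer (NK) cells, the innate lymphocytes that kill cells which have lost class I. Most members are inhibitory: their cytoplasmic end carries an immunoreceptor tyrosine-based inhibitory motif (ITIM), which recruits phosphatases such as that coded by Ptpn6. The activating members, Klra4 (Ly49d) and Klra8 (Ly49h) in the C57BL/6 strain, lack that motif and signal through the adaptor DAP12, the product of Tyrobp. Each NK cell shows only a part of the family on its surface, and some T cells with innate or memory features carry Ly49 receptors as well.

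The cells were CD45+ leukocytes sorted from sciatic nerves of NOD.AIRE GW/+ mice aged 15 weeks, which carry 1 altered copy of Aire, a regulator of antigen display in the thymus, on the autoimmune-prone NOD background. There were 3 libraries of this 1 genotype, so no effect of genotype was measured. Nerves of wild-type mice were not used here. Libraries 1 and 2 were read from the 3′ end of transcripts and library 3 from the 5′ end, and library 1 alone has "pos" at the end of its name in the cell table, which the labels do not explain. The libraries held 6033, 2333 and 3274 cells with 22587246, 11398628 and 13791264 UMIs (unique molecular identifiers, each counting 1 captured transcript), and 6 cell barcodes occurred in 2 libraries. Whether a library is 1 animal or a pool is not given in the sources used here, so every p-value measures only the spread between these libraries.

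NOD mice carry another version of the Ly49 region than C57BL/6, the strain of the mm10 build on which the reads were counted, with a different set of genes and alleles. A transcript counted under the name of a C57BL/6 gene may therefore belong to a NOD relative of it. Each name below stands for the reads that mm10 assigns to that gene, and whether a receptor is activating or inhibitory is known here for the C57BL/6 gene only.

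The start of the coding sequence shows where activating and inhibitory members part and how alike the genes are. The first 60 coding bases of each, 5′ to 3′ on the coding strand, are given from the GENCODE annotation of mm10, and the capitals mark the stretch, from base 16 to base 33 of the coding sequence, that holds the codons of the ITIM in the inhibitory members.
Klra1: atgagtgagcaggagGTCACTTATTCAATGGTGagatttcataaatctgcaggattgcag
Klra5: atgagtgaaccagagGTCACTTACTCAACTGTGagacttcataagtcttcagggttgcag
Klra6: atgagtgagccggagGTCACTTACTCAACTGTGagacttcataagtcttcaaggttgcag
Klra7: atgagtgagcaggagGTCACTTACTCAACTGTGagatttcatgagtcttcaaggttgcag
Klra9: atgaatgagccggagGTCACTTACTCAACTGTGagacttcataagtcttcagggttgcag
Klra4: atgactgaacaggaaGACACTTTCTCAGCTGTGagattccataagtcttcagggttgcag
Klra8: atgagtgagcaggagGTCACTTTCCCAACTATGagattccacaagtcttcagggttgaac
With positions counted from 1 at the start codon and Klra1 as the reference, Klra4 and Klra8 share the substitution A23T, which none of the other members has. Klra5, Klra6, Klra7 and Klra9 have identical capitals, which differ from those of Klra1 by T24C, T29C and G30T. These are letters of the C57BL/6 reference, not of the NOD mice studied.

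All 7 genes lie on the minus strand of chromosome 6 (mm10) within 487879 bases, from the end of Klra5 at 129898996 to the start of Klra1 at 130386874. Klra6 follows at 130013033 to 130026954, Klra4 at 130043731 to 130067271, Klra8 at 130115226 to 130129898, Klra9 at 130178675 to 130193112 and Klra7 at 130218605 to 130233322. Over the whole coding sequence the pairs are 74.0% to 91.9% identical. The closest pairs are Klra5 with Klra6 and Klra8 with Klra9, both at 91.9%. Of all stretches of 50 bases in the transcript of Klra8, 33.1% occur without a difference in at least 1 of 13 other Klra genes and pseudogenes of mm10. For Klra9 the share is 30.0%. It is 10.5% for Klra7 and 0.82% to 4.35% for the other members. How reads that match several genes were counted is not given in the sources used here, so values of Klra8 and Klra9 are the least certain.

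Transcripts of the 7 genes were concentrated in deposited clusters 8 and 9, both of the authors' class gdT/NK/NKT. These clusters held 91.5%, 95.5% and 92.9% of all UMIs of the 7 genes in libraries 1, 2 and 3, in 5.85%, 16.2% and 9.65% of the cells. Cluster 8 (202, 123 and 244 cells) has NK markers: the NK receptor gene Ncr1 was at 257, 163 and 514 UMIs per 1000000 (CPM) there, against 17.5, 0 and 45.9 CPM in cluster 9. Cluster 9 (151, 255 and 72 cells) has markers of T cells: Cd3e, a chain of the T cell receptor complex, was at 841.5, 720.9 and 2730 CPM there against 66.3, 120.9 and 153.7 CPM in cluster 8. Trdc, the constant gene of the delta chain that defines gamma-delta T cells, was at 738, 558 and 223 CPM in cluster 9 and at 195, 360.1 and 133.8 CPM in cluster 8, so cluster 8 is not free of T cell transcripts.

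The summed level of the 7 genes was 2546, 3961 and 3145 CPM in cluster 8 (3217 ± 710 CPM, mean ± SD, n = 3 libraries). It was 2954, 2859 and 1521 CPM in cluster 9 (2445 ± 801 CPM). The ranges of the 2 clusters overlap, so neither is above the other beyond the spread of libraries. Next came cluster 5, a set of shallow cells in the authors' Cd4 class (130.6 ± 65.9 CPM), and the CD8 clusters 4 (79.6 ± 40.3 CPM) and 3 (45.4 ± 28.1 CPM). These 3 overlap with each other, and every library of cluster 8 or 9 lies above every library of the other 12 clusters.

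**Figure D1:**
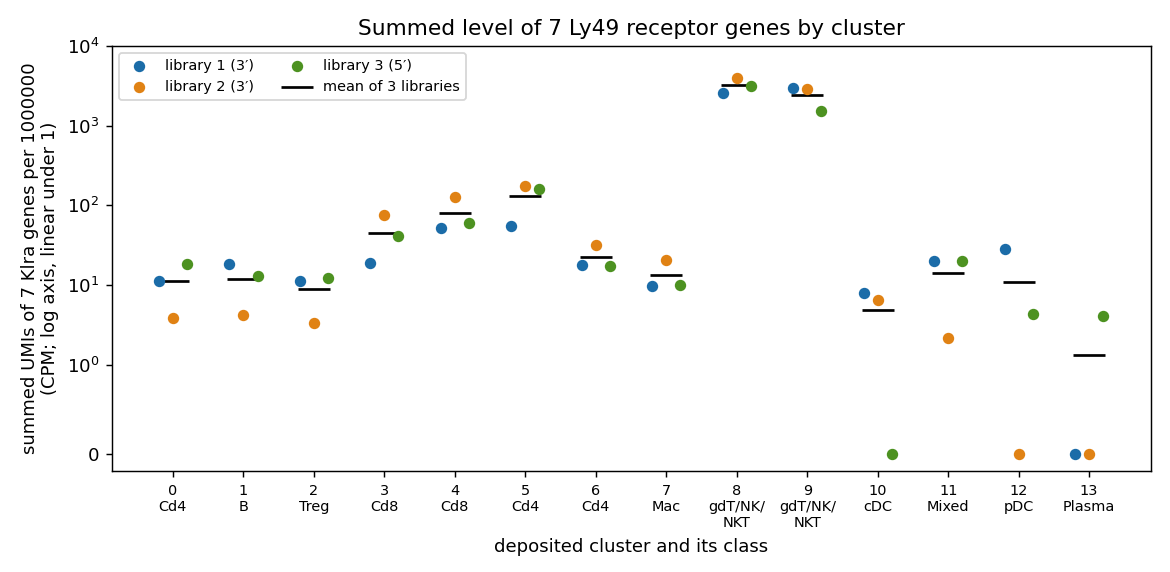
Summed CPM of the 7 Klra genes (log axis, linear under 1) in each deposited cluster, 1 point per library with a bar at the mean. Clusters 8 and 9 hold 1521 to 3961 CPM in every library, and cluster 5, the next, 55.0 to 175 CPM.

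Among the inhibitory members Klra1 (Ly49a) was the most abundant in the 3′ libraries. Its level was 1096, 1624 and 389.7 CPM in cluster 8 and 1246, 1425 and 171 CPM in cluster 9. The 5′ library is the lowest in both, at 0.287 and 0.128 times the mean of the 3′ libraries, and the clusters overlap. Klra5 (Ly49e), known as the member that is made early in development and by many innate-like T cells, was at 140.2, 442 and 86.0 CPM in cluster 8 and at 994, 798 and 774 CPM in cluster 9. Here the clusters do not overlap, with cluster 9 higher by 7.09, 1.8 and 9.0 times within libraries 1, 2 and 3. Klra6 (Ly49f) was the rarest member in cluster 8 at 20.2, 25.7 and 12.5 CPM, against 175, 148 and 39.8 CPM in cluster 9, again without overlap (8.68, 5.75 and 3.18 times).

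Klra7 (Ly49g) leaned the other way. It was at 213, 193 and 223 CPM in cluster 8, a narrow range, and at 79.5, 87.9 and 187 CPM in cluster 9. Klra9 (Ly49i) was at 164, 132.5 and 622 CPM in cluster 8 and at 130.4, 126.7 and 91.8 CPM in cluster 9. Its 5′ value in cluster 8 was 4.19 times the mean of the 3′ libraries (148 CPM), and cluster 8 was higher in each library, by 1.26, 1.05 and 6.78 times.

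The activating members of C57BL/6 were found mainly in cluster 8. Klra4 (Ly49d) was at 387, 1029 and 1391 CPM in cluster 8 against 69.99, 84.3 and 236 CPM in cluster 9, which is 5.53, 12.2 and 5.9 times within libraries. Klra8 (Ly49h), in C57BL/6 the receptor for a protein of mouse cytomegalovirus, was at 525, 514 and 421 CPM in cluster 8 against 259, 189 and 21.4 CPM in cluster 9. For both genes all 3 values of cluster 8 lie above all 3 of cluster 9. Together Klra4 and Klra8 made 35.8%, 39.0% and 57.6% of the 7 genes' UMIs in cluster 8 (of 2651, 3080 and 4277 UMIs).

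**Figure D2:**
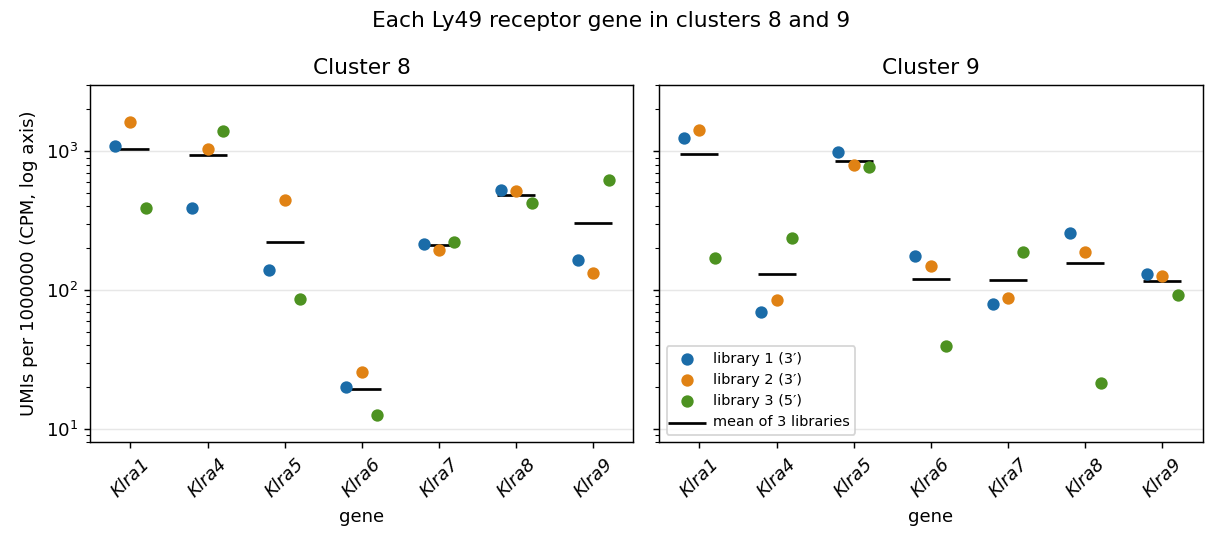
CPM (log axis) of each of the 7 genes in clusters 8 and 9, 1 point per library with a bar at the mean. Klra4 spans 387 to 1391 CPM in cluster 8 and 69.99 to 236 CPM in cluster 9, and Klra5 86.0 to 442 and 774 to 994 CPM.

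Which member leads depended on the library. In cluster 8 Klra1 made 43.0%, 41.0% and 12.4% of the 7 genes' UMIs, and Klra4 15.2%, 26.0% and 44.2%. Klra9 made 6.45%, 3.34% and 19.8%. The library that stands apart is the only 5′ library. With 1 such library, the reading end and the nerves cannot be told apart. The ratios between clusters above were therefore taken within libraries, while the statements on ranges and overlap use all 3 libraries together. Within libraries 1, 2 and 3, Klra1 in cluster 8 was at 0.88, 1.14 and 2.27 times its level in cluster 9. The sum of the 7 genes was lower in cluster 8 than in cluster 9 in library 1 and higher in libraries 2 and 3.

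Signalling partners of these receptors differed in level between the clusters. Tyrobp, the adaptor of the activating members, was at 1940, 2362 and 2535 CPM in cluster 8 and at 301, 168 and 386 CPM in cluster 9. The kinase gene Syk, which acts below Tyrobp, was at 51.9, 41.2 and 52.9 CPM against 4.77, 3.66 and 3.06 CPM, where 3 UMIs, the limit that a count of 0 allows, are 4.77, 2.20 and 9.18 CPM. In cluster 9 Syk was above that limit in library 2 only, so its presence there is not shown in the other libraries. Hcst, the adaptor DAP10, was at 674, 826 and 757 CPM in cluster 8 and at 1029, 1352 and 1031 CPM in cluster 9. The phosphatase gene Ptpn6 was at 106, 129.9 and 246 CPM in cluster 8 and at 170.2, 138.5 and 156 CPM in cluster 9, where the ranges overlap. These clusters were drawn from the same counts, so the levels describe them and were not tested.

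Of the other Klra genes, Klra10 and Klra3 were found in cluster 8 too. Klra10 was at 66.3, 127 and 36.0 CPM and Klra3 at 42.3, 25.7 and 15.4 CPM in cluster 8, both lower in cluster 9. Klra17 was highest in plasmacytoid dendritic cells, the main makers of type I interferon (cluster 12, 326, 473 and 356 CPM, with 2 cells in library 2), followed by conventional dendritic cells (cluster 10, a mean of 52.3 CPM). Klra2 was found in macrophages (cluster 7, 55.0, 89.1 and 123 CPM), and its mean was 1.13 CPM or less in every other cluster.

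Over the 14 clusters, the genes whose pattern was most like that of the 7 genes summed were Ypel1 (Pearson r = 0.955 of mean log2(CPM + 1)), Klrc3 (0.942), Spry2 (0.935), Cdca2 (0.93) and Htra3 (0.929). They were followed by Itga1 (0.927), Klrb1f (0.924), Tssk6 (0.917), Ugcg (0.908) and Klrb1a (0.9). Klrc3, Klrb1f and Klrb1a code for other lectin-like receptors of the same chromosome region, and Itga1 for an integrin chain that marks tissue-resident lymphocytes. The 11046 genes with at least 100 UMIs were compared, all on clusters drawn from the same libraries. With a pseudocount of 10 in place of 1, 8 of these 10 genes were among the first 10, and with Spearman's rank order 2. Some of the 10 were low: means in clusters 8 and 9 were 13.1 and 9.82 CPM for Ypel1 and 7.16 and 11.3 CPM for Tssk6. Cdca2 was at 8.0 and 8.36 CPM there and at 6.57 CPM in cluster 4. Klrc3 was at 17.75 ± 26.0 CPM in cluster 8, an SD above its mean. Spry2, Htra3, Itga1, Klrb1f, Ugcg and Klrb1a had means of 38.7 CPM or more in both clusters.

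Single cells with a Ly49 transcript were compared after every cell was thinned to 1000 UMIs, because deeper cells show more genes. At least 1 of the 7 genes was then seen in 75.7%, 87.0% and 83.9% of cells of cluster 8 (153 of 202, 107 of 123 and 193 of 230) and in 82.8%, 76.9% and 58.0% of cluster 9. B cells (cluster 1), which do not use these receptors, gave 1.40%, 1.14% and 1.30% and serve as the background (median 3113.5 UMIs per cell, against 5645 in cluster 8 and 4681 in cluster 9). With all UMIs the shares were 92.2%, 87.6% and 3.50% on average over libraries in clusters 8, 9 and 1.

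By single gene, again at 1000 UMIs, Klra1 was seen in 54.0%, 73.2% and 33.9% of cluster 8, Klra4 in 30.7%, 56.1% and 66.1%, and Klra8 in 29.1% ± 3.02 (mean ± SD, n = 3 libraries). Klra9 was seen in 16.3%, 11.4% and 37.4%, Klra7 in 15.3%, 14.6% and 14.3%, Klra5 in 7.92%, 27.6% and 8.26% and Klra6 in 1.49%, 0.813% and 0.870%. In cluster 9 the leading gene by this measure was Klra1 in the 3′ libraries (60.3% and 62.0%) and Klra5 in the 5′ library (37.7%).

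Many cells of both clusters held more than 1 of the genes. With 2000 UMIs per cell, 2 or more were seen in 66.8%, 77.0% and 75.0% of cells of cluster 8 (of 190, 122 and 196 cells) and in 72.5%, 59.4% and 45.9% of cluster 9 (of 131, 251 and 61). The mean was 2.19, 2.70 and 2.50 genes per cell in cluster 8 and 2.34, 1.94 and 1.54 in cluster 9. No cell of cluster 8 showed all 7 at that depth and 1 cell of cluster 9 did. The number depends on depth: with 1000 UMIs per cell 2 or more genes were seen in 45.5%, 69.1% and 61.7% of cluster 8 and in 51.7%, 43.1% and 27.5% of cluster 9. With all UMIs the means were 3.03, 3.63 and 3.31 genes in cluster 8.

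**Figure D3:**
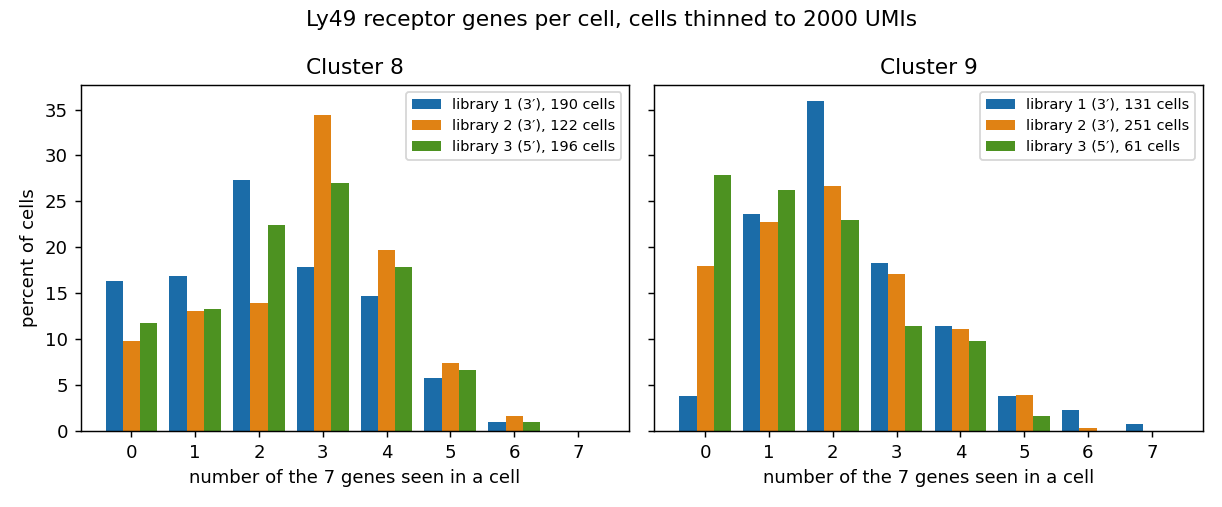
Percent of cells (vertical axis) by how many of the 7 genes were seen (horizontal axis), with every cell thinned to 2000 UMIs, 1 bar per library. Cells with 0 genes are 9.84% to 16.3% of cluster 8 and 3.82% to 27.9% of cluster 9.

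Pairs of the genes were compared within cells. In cluster 8 at 2000 UMIs, 8 of 21 pairs were seen together more often in all 3 libraries, and 1 pair (Klra4 with Klra6) less often in all 3. Klra8 with Klra4 was such a pair: of cells with Klra8, 60.7%, 83.3% and 92.5% also showed Klra4, against 26.4%, 45.2% and 66.4% of cells without it. Klra9 with Klra8 was similar, with 76.2%, 73.1% and 55.4% against 35.1%, 42.7% and 27.9%. This pair shares 91.9% of its coding sequence, and whether reads of 1 gene were counted under both was not tested. Klra8 was seen less often in cells with Klra5 than without in libraries 1 and 2 (39.1% against 44.9% and 44.4% against 51.2%), and more often in library 3 (45.5% against 40.2%). In cluster 9, 12 of 21 pairs were seen together more often in all 3 libraries, and Klra6 with Klra7 less often in all 3, with 6 Klra6 cells in library 3. With all UMIs Klra6 and Klra7 were together more often in libraries 1 and 2 (26.8% against 14.7% and 22.5% against 15.1%), and no pair of cluster 9 was less frequent in all 3. In cluster 8 Klra6 was seen in 6, 4 and 4 cells at 2000 UMIs. With all UMIs, 12 pairs of cluster 8 were together more often in all 3 libraries and 3 less often, each of these 3 with Klra6. How many of 21 unlinked pairs would agree in all 3 libraries was not estimated. These shares are descriptions, since cells of a library are not replicates.

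Cells of cluster 8 with and without a Ly49 transcript were then compared for all other genes. UMIs of the cells in each arm were summed per library, and the sums were compared within libraries by edgeR's quasi-likelihood test with Benjamini-Hochberg adjustment over all tested genes. The 7 genes were left out of each test. Too few cells lacked all 7 genes at full depth (21, 7 and 18), so this one comparison was made on cells thinned to 1000 UMIs. Of 1106 genes 22 were called at an adjusted p under 0.05 (1.99%), 12 higher (1.08%) and 10 lower (0.904%) in cells with a Ly49 transcript.

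Tyrobp was at 1895, 2346 and 2446 CPM in cells with a Ly49 transcript and at 816, 125 and 1027 CPM in cells without. All values with are above all values without, and the log2 fold change was 1.60 ± 0.24 (SE, edgeR adjusted p = 0.000194). Gzmb, which codes for the killing protease granzyme B, was higher by 1.36 ± 0.28 (edgeR adjusted p = 0.0044), and so was Itgae (CD103, which binds epithelium) by 3.02 ± 0.56. Il7r, the interleukin 7 receptor that is typical of innate lymphoid and memory cells, was at 78.4, 46.7 and 41.5 CPM against 449, 188 and 405 CPM (−2.67 ± 0.42, edgeR adjusted p = 0.000194). The NKG2A gene Klrc1, an inhibitory receptor for another class I molecule, was lower as well (−1.88 ± 0.42), as was the survival gene Bcl2 (−1.74 ± 0.44). Without library 1 edgeR called 0 genes (90 at an unadjusted p under 0.05), with Tyrobp at 1.97 and Il7r at −2.76, and DESeq2 called 2 with all libraries. Itgae was also not called without library 3 (3.24), nor Bcl2 without library 2 (−1.10).

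The split was repeated for each gene in turn at full depth, an analysis added after the first results were seen. The 7 splits divide the same cells and the genes occur together, so they do not count as separate evidence. The number of genes called was 90 of 5629 for Klra1 (1.6%), 66 of 5523 for Klra4 (1.2%), 76 of 4772 for Klra5 (1.59%) and 5 of 4790 for Klra6 (0.104%). It was 29 of 5428 for Klra7 (0.534%), 126 of 5440 for Klra8 (2.32%) and 204 of 5310 for Klra9 (3.84%), by edgeR. The calls for Klra4 and Klra9 rest on library 3: without it there were 0 for each by edgeR, with 335 and 461 genes at an unadjusted p under 0.05. Leaving out 1 library gave 33 to 98 calls for Klra1 (fewest without library 1), 40 to 102 for Klra5 and 39 to 119 for Klra8 (fewest without library 2), 2 to 15 for Klra6 and 15 to 40 for Klra7. Without library 1 there were 273 for Klra4 and 58 for Klra9. DESeq2 called 26, 44, 15, 2, 1, 18 and 40 genes for Klra1, Klra4, Klra5, Klra6, Klra7, Klra8 and Klra9. On cells thinned to 1000 UMIs, where 871 to 1451 genes could be tested, edgeR called 1 for Klra1, 2 for Klra4, 10 for Klra5 and 5 for Klra9, and 0 for Klra7 and Klra8 (52 and 63 at an unadjusted p under 0.05). Cells with and without a transcript differed in depth: for Klra1 in library 3 the medians were 6728 UMIs with and 3509.5 without, and for Klra5 the arms were close (4986 and 4773, 6309 and 5966, 6101 and 6029.5).

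Tyrobp was at 2398, 2801 and 2838 CPM with Klra8 and at 1171, 1500 and 1939 CPM without (0.84 ± 0.10, edgeR adjusted p = 4.66e-14), and 0.65 in cells at or above the median depth (adjusted p = 0.000487). On cells thinned to 1000 UMIs it was at 0.41 and not called (edgeR adjusted p = 0.257). The perforin gene Prf1 was higher by 0.65 ± 0.13, but not called without library 1 (0.61) or 2 (0.39), and 3 of 10 tested cytotoxic genes were called higher and 0 lower. Their median log2 fold change was 0.23, against −0.0058 over all tested genes. Among the other Klra genes, Klra10 and Klra3 were higher with Klra8: Klra10 (96.5, 186 and 43.3 against 15.4, 11.5 and 21.8 CPM, 2.46 ± 0.30) and Klra3 (2.59 ± 0.49). Whether reads of a single gene were counted under several of these names was not tested.

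Il7r and T cell receptor genes were lower in cells with Klra8. Il7r was at 201, 191 and 183 CPM without Klra8 and at 58.2, 25.2 and 11.1 CPM with it (−2.67 ± 0.21, edgeR adjusted p = 3.15e-28), and −2.66 in the deeper cells. Cd3e was at 124, 244 and 351 CPM against 32.2, 58.2 and 53.2 CPM (−2.32 ± 0.19, edgeR adjusted p = 3.26e-27). Tmem176b, an ion channel gene, was at 59.2, 45.8 and 144 CPM against 6.13, 5.82 and 2.22 CPM (−4.26 ± 0.39). The costimulator Icos (−1.54), Helios, coded by Ikzf2 (−1.44), and the NKG2 genes Klrc1 (−1.64) and Klrc2 (−1.42) were lower too. These calls kept their side without each library in turn, except Klrc2 without library 2. The list of T cell markers moved with the split: 4 of 6 were called lower with Klra8 and 1 (Cd3g, not without library 1 or 2: 0.39 and 0.38) higher, with summed levels of 1349 to 2840 CPM with and 1719 to 2996 CPM without. Of 8 NK markers 3 were called higher and 1 lower, with 4213 to 7164 CPM with and 3172 to 4832 CPM without. The part of these markers in the differences was not tested.

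A group of 51 genes was called in at least 4 of the 7 splits of cluster 8, a threshold chosen after the values were seen. Higher in at least 4 splits were Tyrobp, the granzyme gene Gzmc and Klra10. For Klra10 the part of reads that match several Klra genes was not tested. Gzmb was higher with Klra1, Klra4 and Klra9 and lower with Klra7. Gzmc, for example, was higher by 1.95 with Klra1, 2.73 with Klra4, 1.92 with Klra5, 0.95 with Klra8 and 2.59 with Klra9. The Gzmc call with Klra8 ended without library 1 (0.77) or 2 (0.46). Those with Klra4 and Klra9 ended without library 3, where neither split had any call by edgeR. The group of 51 was counted with all libraries, so its calls in these splits rest on library 3 too. Lower in at least 4 were Il7r, Klrc1, Il18r1, Tmem176a and Tmem176b. Il18r1, a receptor chain for interleukin 18, was called lower in 6 of the 7 splits, by 0.78 to 1.53 on the log2 scale.

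**Figure D4:**
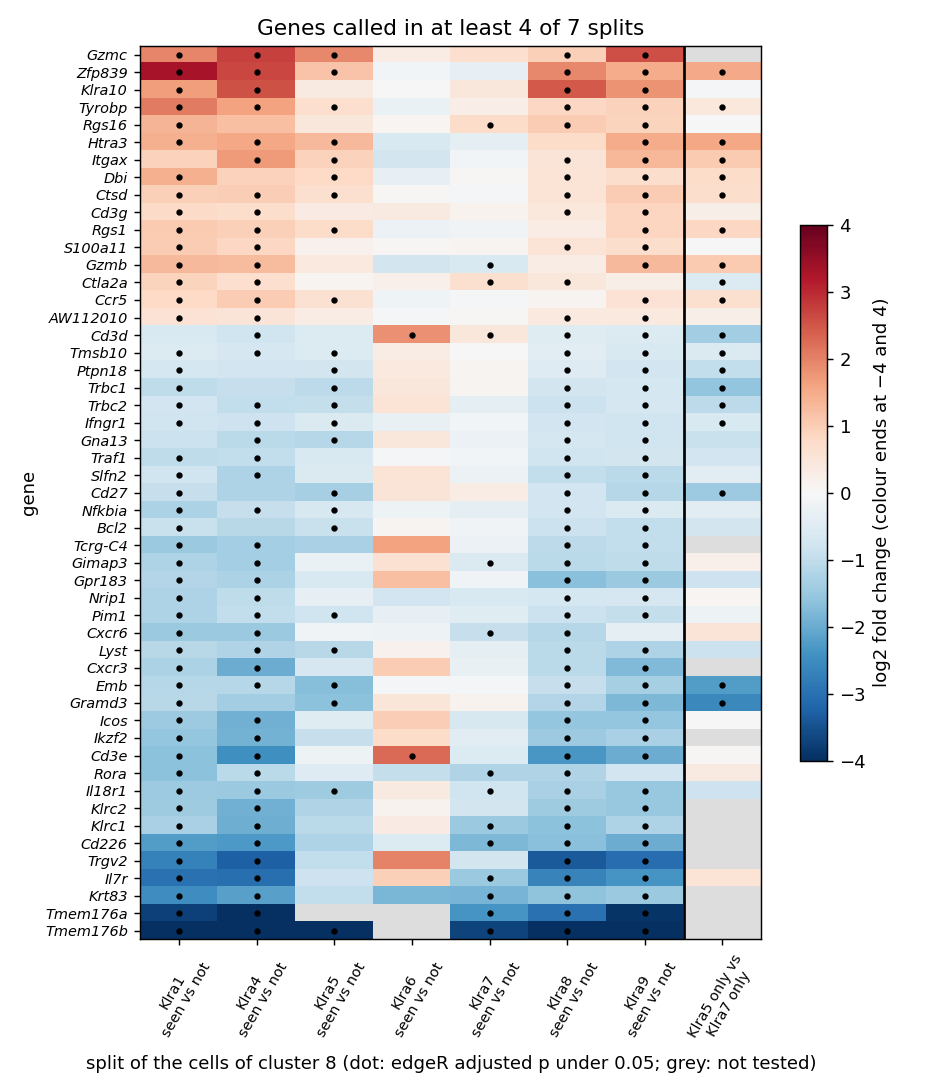
Log2 fold change (colour) of the 51 genes called in at least 4 of 7 splits of cluster 8, in the 7 splits of cells with against cells without each gene and in Klra5 alone against Klra7 alone. Dots mark an edgeR adjusted p under 0.05 with all libraries, and Il7r, for example, stands at −3.01 for Klra4, −0.82 for Klra5 and 0.96 for Klra6.

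The splits by Klra1, Klra7 and Klra6 divide overlapping cells, and differences between splits were not tested. With Klra1 the killing gene Gzmb was at 594.5, 1188 and 1148 CPM against 124.8, 178 and 1053 CPM without (1.31 ± 0.22, edgeR adjusted p = 4.21e-05), and 2.50 without library 3. With Klra7 it was at 228, 1038 and 899.9 CPM against 741, 1165 and 1277 CPM without, which is lower in every library (−0.61 ± 0.12, edgeR adjusted p = 0.00195), but not called without library 1 (−0.27). The few cells with Klra6 (14, 11 and 10) had more Cd3e (240, 353 and 674 against 52.0, 96.6 and 123 CPM, 2.26 ± 0.23) and Cd3d (1.84 ± 0.17) than the rest (edgeR adjusted p = 3.35e-06 and 5.43e-07).

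The contrast of Klra5 and Klra7 was tested directly in cluster 8, between cells with Klra5 and not Klra7 (19, 30 and 19 cells) and cells with Klra7 and not Klra5 (69, 33 and 71 cells). This test was also added after seeing the data. Of 2785 genes 103 were called by edgeR (3.7%), 38 higher (1.36%) and 65 lower (2.33%) in the Klra5 cells. Median depths were 5172, 5958.5 and 5983 UMIs in Klra5 cells and 5024, 6427 and 6734 in Klra7 cells.

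Emb, which codes for the adhesion protein embigin, was lower in Klra5 cells, at 99.0, 118 and 96.9 CPM against 378, 577 and 399.7 CPM in Klra7 cells (−2.23 ± 0.24, edgeR adjusted p = 3.2e-13). The homing receptor gene Ccr7 had 0, 0 and 1 UMI in Klra5 cells against 27, 13 and 95, and Tcf7, a transcription factor of memory and less mature cells, 2, 3 and 2 UMIs against 53, 21 and 50 (−2.66 ± 0.44). Cxcr4 (−2.08), Cd27 (−1.45), Eomes (−1.05) and the chemokine gene Xcl1 (−1.10) were lower as well.

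Gzmb stood at 505, 1709 and 1724 CPM in Klra5 cells against 254, 577 and 937 CPM in Klra7 cells (1.05 ± 0.16, edgeR adjusted p = 3.31e-07), higher in each library. The checkpoint receptor gene Ctla4 (0.99 ± 0.22) and Tyrobp (0.42 ± 0.12) were higher too. Without library 3 the number of calls fell to 6, all among the 103. Emb (−2.23), Cxcr4 (−1.86) and Gzmb (1.25) were still called, while Ccr7 (0 UMIs left in the Klra5 cells), Tcf7 (−2.67), Eomes (−0.85), Cd27 (−1.03), Xcl1 (−1.22), Ctla4 (0.63) and Tyrobp (0.48) were not. Xcl1 (−0.59) and Tyrobp (0.35) were not called without library 2 either, where 51 genes were called. DESeq2 called 24, all of them among the 103, and thinning to 1000 UMIs left 263 testable genes and 1 call. Markers of T cells moved with the split, with 3 of 5 tested markers (Cd3d, Trbc1 and Trbc2) lower in Klra5 cells and summed levels of 1298 to 2241 against 1573 to 2793 CPM, and their part was not tested. None of the 3 held without library 2 (−0.52, −1.25 and −0.04).

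In cluster 9 the same splits gave fewer calls, with fewer genes tested in each. It had fewer cells than cluster 8 in libraries 1 and 3 (151 against 202 and 72 against 244) and more in library 2 (255 against 123). The part of cell numbers in the calls was not tested. Cells with any of the 7 genes, thinned to 1000 UMIs, had 3 genes of 690 called by edgeR (0.435%), all higher: Gzmb (41, 124 and 20 against 4, 10 and 8 UMIs, 1.45 ± 0.34, adjusted p = 0.00889), Ly6a (1.04) and S100a6 (0.58). Leaving out libraries 1, 2 and 3 gave 8, 1 and 1 calls, and Gzmb lost its call without library 2 (0.92), Ly6a without 2 or 3 (0.71 and 1.40) and S100a6 without any 1 of the 3 (0.39 to 0.69). By gene, 1 of 3181 was called for Klra1 (0.0314%), 9 of 4123 for Klra4 (0.218%), 7 of 4208 for Klra5 (0.166%), 3 of 3676 for Klra7 (0.0816%) and 15 of 4060 for Klra9 (0.369%). Leaving out 1 library gave 2 to 12, 1 to 15, 6 to 24, 0 to 18 and 3 to 22 calls. The 0 was for Klra7 without library 2 (127 genes at an unadjusted p under 0.05), and DESeq2 called 1, 0, 1, 0 and 3 with all libraries. For Klra6 and Klra8 at least 1 library had under 10 cells with the transcript, and no test was made.

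Klra9 marked cells of cluster 9 with few gamma-delta transcripts. Trdc had 14, 8 and 7 UMIs (69.0, 20.6 and 100.2 CPM) in cells with Klra9 and 450, 754 and 66 UMIs (1057, 771.5 and 257 CPM) in cells without, with every value with Klra9 below every value without it. The log2 fold change was −4.06 ± 0.29 (edgeR adjusted p = 4.58e-12), and without library 1 it was −4.14 but no longer called (adjusted p = 0.0508). Tcrg-C4, a gamma chain gene, was lower (−1.69 ± 0.23), and so was Plac8 (−2.14 ± 0.23), both not called without library 1 (−1.69 and −2.05). Gzmb was at 566.5, 813 and 1633 CPM with Klra9 and at 277, 182 and 198.5 CPM without (2.04 ± 0.20, edgeR adjusted p = 1.5e-08), and this held without each library (1.69 to 2.52) and in the deeper cells (1.91). Cells with Klra7 also had less Trdc (−1.03 ± 0.20), called without library 1 (−1.25) and 3 (−1.05) but not 2 (−0.79).

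Klra5 in cluster 9 went with less Pdcd1, the gene of the checkpoint receptor PD-1. It was at 114, 585 and 562 CPM with Klra5 and at 398, 847 and 1501 CPM without (−1.11 ± 0.17, edgeR adjusted p = 4.05e-05), and called without each library in turn (−0.88 to −1.57). In cells at or above the median depth the fold was −0.99 and not called (adjusted p = 0.999), with fewer cells. Cd8a was lower (−1.22 ± 0.23), at 48.3 against 363 CPM in library 1 and 370.1 against 1288 CPM in library 3, while library 2 had 282 CPM with and 271.5 CPM without. It was not called without library 1 (−0.76). Cells with Klra1 had less Emb (189, 410.3 and 175 against 561, 794 and 433 CPM, −1.20 ± 0.19, edgeR adjusted p = 0.0049), not called without library 1 (−1.05).

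CD8 T cells carried Ly49 transcripts in a minority of cells. At 1000 UMIs, 2.73%, 6.99% and 4.46% of cells of CD8 cluster 4 showed at least 1 of the 7 genes, and 2.05%, 2.26% and 3.70% of CD8 cluster 3, against 1.40%, 1.14% and 1.30% of B cells. Every library of both CD8 clusters is above every library of B cells, but macrophages (cluster 7) gave 1.10%, 2.91% and 2.86%, a range that overlaps with both CD8 clusters. By range, the share in neither CD8 cluster is thus clear of that background. Within libraries, cluster 4 was above macrophages in all 3, and cluster 3 in libraries 1 and 3 only. The 95% exact intervals of library 1 in cluster 3 (0.987 to 3.74) and in B cells (0.856 to 2.15) overlap. In cluster 4 Klra1 was seen in 1.82%, 5.68% and 1.86% of cells, the highest share of the 7 genes in libraries 1 and 2, while Klra9 led in library 3 (2.23%). With all UMIs the shares were 8.14%, 16.6% and 16.2% in cluster 4 and 3.67%, 2.25% and 4.58% in B cells. Cluster 3 then gave 4.88%, 5.99% and 9.22%. Macrophages gave 5.72%, 14.15% and 6.48%, above cluster 3 in libraries 1 and 2 and below cluster 4 in each library. The CD8 comparisons below mainly use all UMIs, so this background applies to their arms with a transcript. In the shallow cluster 5 the share at 1000 UMIs was 3.60%, 3.13% and 10.5% (25 of 237 cells in library 3), where Klra4 had 47 UMIs in library 3 and 0 in the other libraries.

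CD8 cells with a Ly49 transcript (69, 54 and 77 cells) were compared with those without (976, 442 and 553 cells) over both clusters. The arms differ in make-up: cells of cluster 4 were 45 of 69, 38 of 54 and 44 of 77 with a transcript, and 508 of 976, 191 of 442 and 228 of 553 without. Of 8024 genes 39 were called by edgeR (0.486%), 32 higher (0.399%) and 7 lower (0.0872%) in the Ly49 cells. Median depths were 3914, 5716.5 and 5309 UMIs with and 3371, 4705 and 4664 without. Among the called genes Gzmb was at 331, 661 and 555.5 CPM against 148, 383 and 331 CPM (0.89 ± 0.10, edgeR adjusted p = 3.91e-06), and the NK receptor chain Klrd1 (CD94) at 312, 738 and 746.5 against 223, 442 and 473 CPM (0.66 ± 0.09, adjusted p = 6.39e-05). The effector regulator Id2 (0.56 ± 0.08) and the cytokine gene Ifng (0.65 ± 0.11) were higher as well. Gpr183, a receptor that guides cells within lymphoid tissue, was lower, at 63.7, 55.1 and 80.0 against 172, 148 and 219 CPM (−1.42 ± 0.16, edgeR adjusted p = 4.58e-06), as was the early effector gene Gzmk (−0.60 ± 0.10). Within single clusters these differences were not all alike. Gzmb was at 1.24 in cluster 4 and −0.57 in cluster 3, Id2 at 0.52 and −0.42, Ifng at 0.50 and −0.26, and Klrd1 at 0.50 and 0.52. Gpr183 was at −1.56 and −0.92 and Gzmk at −0.29 and −0.84. Of these only Gzmb, Id2 and Klrd1 in cluster 4 were called by edgeR, Id2 (0.58 and 0.39) and Klrd1 (0.51 and 0.44) not without library 2 or 3. The part of the cluster make-up in the pooled differences was not tested.

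**Figure D5:**
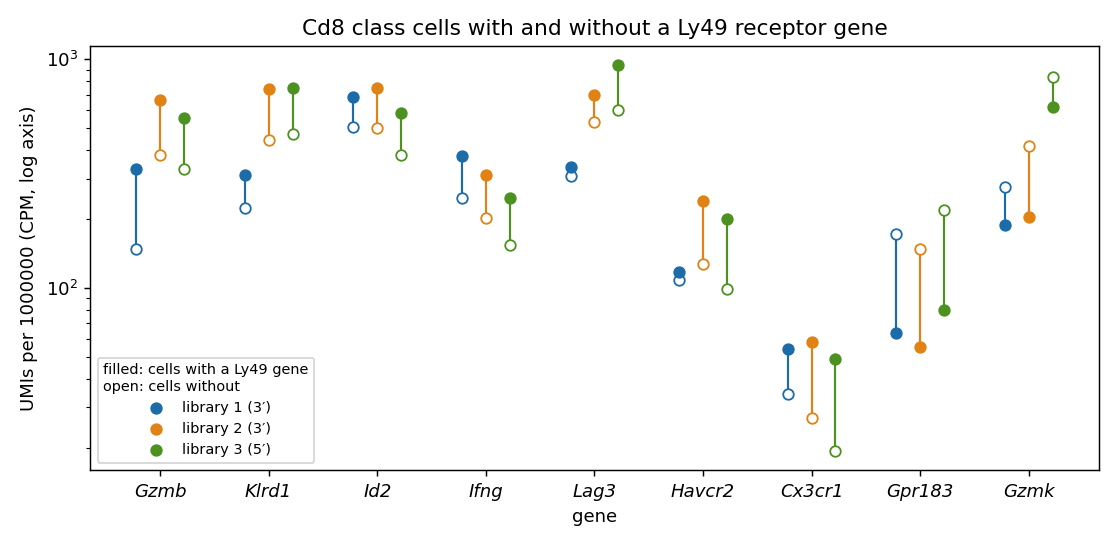
CPM (log axis) of 9 genes in Cd8 class cells with (filled) and without (open) a Ly49 transcript, 1 pair per library. The filled point is above the open one in all 3 libraries for Gzmb, Klrd1, Id2, Ifng, Lag3, Havcr2 and Cx3cr1 and below it for Gpr183 and Gzmk.

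Checkpoint genes of activated cells were part of the same set, with Lag3 (0.45 ± 0.09) and Havcr2 (0.75 ± 0.16) called among 6 tested exhaustion genes, whose median was 0.24 against −0.0055 over all genes. Within clusters 4 and 3 Lag3 was at 0.22 and −0.27 and Nkg7 at 0.32 and −0.23, none of them called. Havcr2 was at 0.49 and not called in cluster 4, and it was not tested in cluster 3. Over both clusters Nkg7 was at 0.32 ± 0.06 and not called without library 3 (0.20). Both checkpoint calls ended without library 3 (0.29 and 0.58), and Havcr2 also without library 2 (0.65). Of the 9 tested cytotoxic genes 3 were higher (Gzmb, Ifng and Nkg7) and 1 lower (Gzmk), with a median of 0.22. None of the 10 tested genes of Ly49-positive regulatory or memory-like CD8 cells was called, with a median of −0.15. Among them Ikzf2 was at 0.09 ± 0.21 (edgeR adjusted p = 0.979) and Il2rb at 0.33 ± 0.09 (adjusted p = 0.106). Gzmb, Klrd1, Id2 and Gpr183 were called without each library and in cells at or above the median depth (1.16, 0.64, 0.62 and −1.32). On cells thinned to 1000 UMIs 6 genes were called, none of them among the 39, and the fold of Gzmb was 0.20 (adjusted p = 0.949).

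Markers of other cells were also higher in some of these libraries. Trdc was called higher (2.50 ± 0.34, edgeR adjusted p = 0.000104), at 98.7, 187 and 4.44 CPM with and 14.6, 20.0 and 10.4 CPM without, so library 3 ran the other way, and it was not called without library 1 (2.36). Tyrobp was called (2.20 ± 0.48), but at 98.7, 0 and 17.8 against 7.81, 3.55 and 11.8 CPM, and not without library 1 (0.29) or without scrublet doublets (1.69). The 8 NK markers summed to 413 to 634 CPM with and 324 to 421 CPM without, with 1 of 4 tested called higher and Klrb1c at 0. The 4 macrophage markers summed to 414, 6.12 and 2.22 CPM with and 29.7, 5.77 and 7.16 CPM without. Their part in the result was not tested.

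Within cluster 4 alone 9 of 6451 genes were called by edgeR (0.14%), 8 higher (0.124%) and 1 lower (0.0155%). Gzmb was at 388, 941 and 720.5 CPM with and 155, 464 and 273 CPM without (1.24 ± 0.11, adjusted p = 1.07e-06), called without each library. Trdc was higher by 4.16 ± 0.48 (30, 47 and 1 UMIs with, 2, 24 and 3 without), called without library 1 (3.14) and 3 (4.35) and not tested without 2. Ccr7 was lower (17.1, 0 and 32.6 against 45.9, 53.4 and 112 CPM, −2.03 ± 0.38, adjusted p = 0.0298), not without library 2 (−1.65). Leaving out libraries 1, 2 and 3 gave 19, 4 and 22 calls. In cluster 3 the 4 genes called of 5975 (0.0669%) included Ccr7, a homing receptor gene of naive and central memory cells. It was at 276, 274.5 and 725 CPM with and 88.1, 107 and 269.8 CPM without (1.49 ± 0.18, edgeR adjusted p = 3.22e-06), and the chromatin organiser Satb1 was higher by 1.12 ± 0.21. Without library 3 none of the 4 was called by edgeR (280 genes at an unadjusted p under 0.05), with Ccr7 at 1.5, and Satb1 (0.96) was also not called without library 2. Leaving out libraries 1 and 2 gave 21 and 9 calls. Ccr7 thus had opposite signs in the Ly49 cells of the 2 CD8 clusters. The fold of Gzmb did too, but it was not called in cluster 3 (edgeR adjusted p = 0.839). There Gzmb was higher with a transcript in library 1 (163 against 137 CPM) and lower in libraries 2 and 3. The differences between the 2 clusters were not tested.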

How the data were processed

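UMI counts per gene and cell are whole numbers without scaling in the table the authors deposited, and their cell table gives library, cluster and class. It also holds a percent of mitochondrial UMIs per cell, which the authors computed per the file headers and which was not used. Cell Ranger 5.0.1, Seurat 4.0 and build mm10 are named in the submitters' processing notes, without their roles. The cell numbers in the labels (6033, 2333 and 3274) paired cells with samples. All deposited cells were kept. Doublets were called with scrublet (scanpy 1.11.5) in each library (75, 8 and 1 cells) and left out only as an alternative.

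Levels are UMIs over all UMIs of a cluster and library, per 1000000 (CPM). Where a count is 0, up to 3 UMIs are allowed. Intervals are exact binomial (95%) and cover counting error only. The thinned shares leave out 725 cells with fewer than 1000 UMIs and 2219 with fewer than 2000.

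Cells of a cluster were split by at least 1 UMI of a Ly49 gene. Sums per arm and library, with at least 10 cells each, were tested with edgeR 4.0.16 (TMM scaling, filterByExpr, quasi-likelihood F-test) with the library as a block, in R 4.3.3. Standard errors are the log2 fold change over the root of F. DESeq2 1.42.0 was an alternative. Both arms come from the same library, and their deviations correlate at 0.673, 0.623 and 0.828 in the Cd8 class over 8673 genes. On simulated data of the Cd8 class with 200 of 7938 genes changed 4-fold, edgeR recovered 99% with 4.81% false calls. The changed genes were drawn from those with many UMIs, and every gene had the same fixed variability. Smaller folds and a link of depth with detection were not simulated, so these rates do not carry over to the real splits.

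Named genes are the 10 with the largest fold among those called and of the same sign in every library, and called genes of 11 function lists and 16 marker lists. The Ly49 genes and all lists were chosen with earlier results of these data known. For splits by single genes the text names a part of them. A few of the genes so chosen are not reported here.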

Additional observations from a re-analysis of the deposited data

How the results depend on the processing

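Levels of the 7 genes in clusters 8 and 9, and their sum in clusters 8, 9, 4 and 3, moved by less than 1 SD with TMM scaling and without doublets, and the sum also as a mean over cells. Leaving out a library cannot move a mean of 3 by 1 SD. Without library 3 Klra9 in cluster 8 went from 306 to 148 CPM and Klra4 in cluster 9 was at 77.1 CPM, and without library 2 Klra5 in cluster 8 from 223 to 113 CPM. Shares of cells depend on depth: at 2000 UMIs clusters 4, 3 and 1 gave 7.85%, 3.74% and 1.95%, and with all UMIs clusters 8, 9, 4, 3 and 1 gave 92.2%, 87.6%, 13.6%, 6.70% and 3.50%, against 82.2%, 72.5%, 4.73%, 2.67% and 1.28% at 1000 UMIs.

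The number of genes called varied more. Without the replicate block, that is without the library term that pairs both arms, it was 0 in each of the splits tested by edgeR (4 to 167 genes at an unadjusted p under 0.05). With DESeq2 it was 17 in the Cd8 class, 1 in cluster 3, 2 in cluster 8, 0 in cluster 9 and 24 for Klra5 against Klra7. With no filter on low counts it was 73 in the Cd8 class, 26 in cluster 3 and 43 in cluster 4. On thinned cells it was 6 in the Cd8 class, 0 in cluster 4 and 1 for Klra5 against Klra7, with fewer genes tested. In the deeper cells of the Cd8 class it was 9, and with 2 UMIs to make a cell positive 21, or 164 for Klra5 against Klra7, which gave 66 without doublets. Leaving out 1 library gave 26 to 50 calls in the Cd8 class, 0 to 21 in cluster 3, 4 to 22 in cluster 4, 0 to 21 in cluster 8, 1 to 8 in cluster 9 and 6 to 156 for Klra5 against Klra7. The cause was not tested.

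The sign turned in 6 cases, none called under the other setting. On thinned cells these were Cd3g in the Cd8 class (−0.0551), BC018473 in cluster 4 (−0.0635) and, in cluster 8, Ptpn6 by Klra1 (−0.0314), Eomes by Klra7 (−0.038) and Id2 by Klra9 (−0.131). In the deeper cells it was Ccr7 by Klra7 (−0.00289).

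Splits with fewer than 10 cells in an arm were not run, among them clusters 8 and 9 by any gene at full depth, cluster 3 on thinned cells or with 2 UMIs, and cluster 9 by Klra6 and Klra8.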
